A study of Mus musculus with 4 samples.

Results

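Venous endothelial cells (ECs) line the venules and veins that drain the brain, and they were taken here from a single-cell RNA sequencing data set of cerebral blood vessels. A cell counted as an EC when at least 3 of the 6 pan-endothelial genes Cldn5, Flt1, Pecam1, Cdh5, Kdr and Tie1 were detected and the mural and microglial genes Pdgfrb, Vtn, Acta2 and C1qb together had under 3 unique molecular identifiers (UMIs, 1 per captured mRNA molecule). An EC counted as venous when at least 3 of the 6 vein genes Adgrg6, Ch25h, Lrg1, Ackr1, Il1r1 and Nr2f2 and at most 1 of the 7 artery genes Gkn3, Bmx, Mgp, Fbln2, Stmn2, Egfl8 and Clu were detected. This rule held for 595 of 14924 ECs, among 17999 cells with over 500 genes and under 10% mitochondrial UMIs. The remaining 14329 ECs are called other ECs below, and 1283 of them were arterial by the mirror rule, with at least 3 artery genes and at most 1 vein gene.

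The study asked what loss of angiopoietin-2, encoded by Angpt2, does to vessels of the adult brain. Angpt2-KO mice (Angpt2-/-) and Angpt2-WT littermates (Angpt2+/+) were compared at 3 months of age, with 2 mice of each genotype and 1 library per mouse. Vessel fragments were pulled from the cerebrum with beads carrying an antibody to PECAM1 and sequenced with the 10x 3′ chemistry. The deletion was constitutive, made with Pgk-Cre on an Angpt2 flox allele and bred onto C57BL6/J, so the gene was deleted in all cell types and not in ECs alone. In each genotype mouse 1 was female and mouse 2 male. The deleted exon lies outside what 3′ counts read, so the Angpt2 UMIs of venous ECs, 4 and 8 in Angpt2-WT and 37 and 0 in Angpt2-KO, did not check the genotype labels.

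The mice gave 164 and 294 venous ECs in Angpt2-WT and 46 and 91 in Angpt2-KO, holding 3148210, 5200827, 1246105 and 1129683 UMIs in that order. Venous ECs were deep cells, with medians of 17358.5, 15150.5, 21807 and 10756 UMIs, against 5310.0, 4511, 7481 and 3924 in other ECs of the same mice. A rule that asks for several detected genes admits deep cells more readily, so this gap is in part built in. Both Angpt2-KO libraries were small for this class, and Angpt2-KO mouse 1 held a cell of 105653 UMIs that carried 8.48% of all its venous UMIs. That cell had 272 UMIs of Esm1 and 378 of Apln, genes of sprouting tip cells, beside 3 detected vein genes. The median mitochondrial share of UMIs also separated the genotypes, at 4.35 and 4.25% in venous ECs of Angpt2-WT and 3.22 and 3.21% in Angpt2-KO, and at 3.63 and 3.56% against 2.42 and 2.93% in other ECs. Its part in the gene groups below was not tested. Counts of called genes are given with and without this cell and this mouse. The libraries shared 40 cell barcodes pair by pair, of which 33 passed the cell filter and 0 belonged to venous ECs.

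Brain venules are the place where leukocytes attach to the vessel wall and cross it, and their ECs carry adhesion molecules, chemokine-presenting receptors and receptors for inflammatory cytokines. The nuclear receptor COUP-TFII, encoded by Nr2f2, holds vein identity in place by keeping artery genes off. Angiopoietin-2 is a ligand of the endothelial receptor Tie2 (Tek) that mostly opposes the stabilising ligand angiopoietin-1, and it takes part in the sprouting and remodelling of vessels, much of which starts from veins. Like the ECs of other brain vessels, venous ECs also form the blood-brain barrier.

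The vein genes used by the rule were spread unevenly over the venous ECs, and their levels are given as a description because they chose the cells. Levels in this and the next paragraphs are in UPM, the UMIs of a gene per 1000000 UMIs of the class in a mouse, in the order Angpt2-WT 1, Angpt2-WT 2, Angpt2-KO 1 and Angpt2-KO 2. Nr2f2 was at 374, 326, 215 and 347 UPM in venous ECs and at 92.7, 109, 36.4 and 49.0 in other ECs. Il1r1, the receptor of interleukin-1, was at 226, 211, 124 and 222 in venous ECs. Over the 4 mice a UMI of Nr2f2 was found in 90.1 to 97.8% of venous ECs and one of Ackr1 in 15.2 to 25.3%, against 11.5 to 22.9% and 0.632 to 2.00% of the shallower other ECs. The adhesion receptor Adgrg6 was at 159, 181, 136 and 205 and Ch25h, which makes 25-hydroxycholesterol, at 83.2, 88.3, 67.4 and 119.5 UPM. Ackr1, a chemokine receptor that presents ligands on venules without signalling, was at 35.6, 29.4, 15.2 and 57.5, and the secreted glycoprotein gene Lrg1 at 28.9, 48.3, 11.2 and 35.4. Angpt2-KO mouse 1 was lowest of the 4 for each of the 6 genes. Of the 7 artery genes, of which the rule allows 1, Mgp was the most often detected, in 15.9, 13.6, 17.4 and 22.0% of venous ECs, and Gkn3 was at 0.885 to 4.61 UPM over the mice against 407 to 1209 in arterial ECs.

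Ackr1 and Lrg1 were the vein genes detected in the fewest venous ECs, and their promoters are shown because each held a short motif of a transcription factor family known from venous or inflamed endothelium. RefSeq windows of GRCm38.p6, from 250 bases before to 50 after the start, were found for all 6 vein genes (7 windows, 2 of them for Il1r1), and were searched on both strands for AGGTCA, the core site of nuclear receptors such as COUP-TFII, and for a form of the NF-kB motif, GGG and TTCC with any 3 bases between them. The letters of these motifs do not overlap in any window. The Ackr1 window (chr1:173333454-173333753, minus strand) holds the first and the Lrg1 window (chr17:56121897-56122196, minus strand) the second, in capitals.
Ackr1: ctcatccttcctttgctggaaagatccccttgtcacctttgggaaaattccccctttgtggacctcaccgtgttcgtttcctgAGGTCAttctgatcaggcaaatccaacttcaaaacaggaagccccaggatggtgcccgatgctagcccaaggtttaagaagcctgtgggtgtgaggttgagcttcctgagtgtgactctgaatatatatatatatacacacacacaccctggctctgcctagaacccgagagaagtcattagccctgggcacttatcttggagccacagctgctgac
Lrg1: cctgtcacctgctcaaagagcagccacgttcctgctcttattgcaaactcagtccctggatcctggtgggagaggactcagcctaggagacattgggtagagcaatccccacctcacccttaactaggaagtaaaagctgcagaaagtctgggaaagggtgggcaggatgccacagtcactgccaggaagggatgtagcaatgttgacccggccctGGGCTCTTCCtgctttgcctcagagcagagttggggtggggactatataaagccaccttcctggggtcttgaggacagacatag
The match starts 167 bases before the start of Ackr1 and 34 bases before that of Lrg1. Of the other 5 windows 1 held a match, the NF-kB form on the opposite strand of the Il1r1 window at chr1:40266336-40266635. AGGTCA was found in 16.3% of all 32851 RefSeq windows of this length and the NF-kB form in 5.56%, so matches in 1 and 2 of 7 windows describe these letters only.

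Vein genes that the rule did not name were also high in the chosen cells. Vwf, which encodes the clotting protein von Willebrand factor, was at 1022, 1036, 773 and 1012 UPM in venous ECs and at 293, 356, 258 and 235 in other ECs. Vcam1, an adhesion molecule that leukocytes hold on to, was at 691, 622, 367 and 554 against 148, 175, 61.9 and 91.0. In arterial ECs Vcam1 was at 165, 239, 182 and 226, above the other ECs of the same mouse in each case. In each of the 4 mice the venous level lay above that of other ECs for both genes. The amino acid transporter gene Slc38a5 was at 507, 709.9, 535 and 667 against 186, 311, 183 and 218, and in arterial ECs at 14.6, 30.1, 30.6 and 23.8. P-selectin and E-selectin, which mark activated veins elsewhere, were all but absent, with Selp at 0 to 1.27 and Sele at 0 to 2.22 UPM.

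By size of the difference among the 3076 genes outside the rule at 50 UPM or more in venous ECs of every mouse, the 15 highest in venous over other ECs included Col6a6, Wnt5a, Vcam1, Ptgs2, Myof, Icam1, Flrt2, Vwf, Ctsc, Prcp, Rnase4, Car14, Pla2g4a and Tmem252. Among these genes Col6a6, a collagen VI chain, led with 63.2, 58.1, 107 and 121 UPM against 8.09, 14.1, 7.63 and 11.02. The signalling ligand gene Wnt5a followed with 288, 247, 96.3 and 209 against 68.9, 76.8, 15.5 and 25.0. Ptgs2 and Pla2g4a encode the enzymes that open the prostaglandin pathway, and Ptgs2 was at 125, 143, 109 and 145 against 37.1, 40.2, 18.7 and 20.9. Of 3183 genes outside the rule at that level in other ECs of every mouse, the 10 lowest in venous ECs were Sema3g, Unc5b, Igfbp3, Plvap, Cd24a, Alpl, Efnb2, Ivns1abp, Ccnd2 and Cxcl12. Efnb2, the ephrin that marks arteries, was at 7.94, 9.61, 6.42 and 10.6 against 77.1, 66.3, 75.5 and 79.9, and the arteriolar phosphatase gene Alpl at 13.3, 10.6, 6.42 and 8.85 against 152, 138, 52.0 and 92.4. No test was made of these differences, since the cells were chosen by the same counts.

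**Figure D1:**
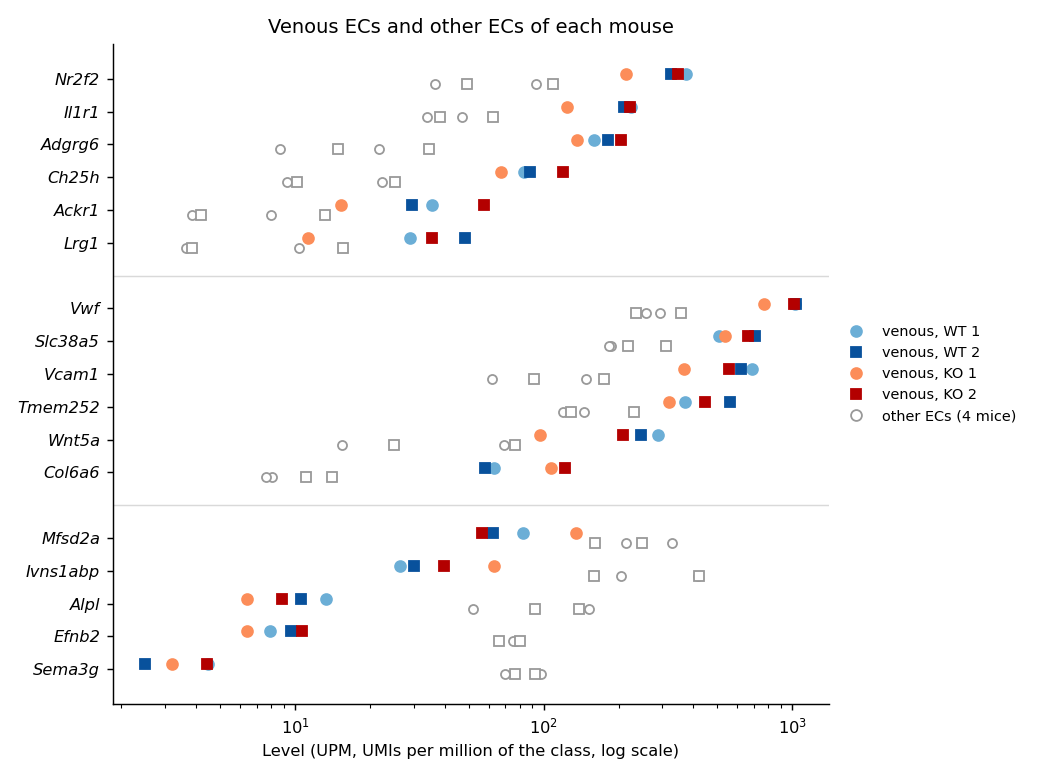
Levels of vein, artery and capillary genes in UPM (log axis), with 1 coloured point per mouse for venous ECs and 1 grey point per mouse for other ECs. The upper block holds the 6 genes of the rule, the middle block vein genes outside it, for which venous points lie to the right of the grey points of the same mouse, and the lower block genes of capillaries and arteries, for which they lie to the left.

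The number of vein genes detected, which the rule itself uses, differed between the chosen cells and is given as a description. Of the 595 cells, 321 had exactly 3 vein genes detected, 161 had 4, 69 had 5 and 44 had all 6. Just outside the rule, 901 ECs with at most 1 artery gene had exactly 2 vein genes. The cells with 3 were also deeper, with median UMI counts of 14846.5, 13656, 20447 and 10538.5 against 11597, 9420, 16790.5 and 7941 in those with 2. Vwf was at 619, 734, 439.9 and 716 UPM in cells with 3 vein genes and at 385, 399, 344 and 344 in cells with 2, and Vcam1 at 481, 453, 258 and 525 against 249, 216, 102 and 241. The capillary lipid transporter gene Mfsd2a ran the other way, at 112, 84.9, 139 and 67.5 against 150.3, 124, 233 and 121. For Vwf and Vcam1 the cells inside the threshold were higher in every mouse, and for Mfsd2a they were lower in every mouse.

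A further split, by a UMI of Ackr1, was made as a description and with no test. There were 32, 60, 7 and 23 venous ECs with it and 132, 234, 39 and 68 without it. The cells with Ackr1 had Vwf at 1608, 1586, 1609 and 1549 UPM, against 876, 903, 640.5 and 892 in those without. They were also higher in every mouse for Lcn2, an iron-binding acute phase protein, at 132, 209, 58.7 and 121 against 42.4, 58.6, 29.7 and 27.1. The calcification inhibitor gene Mgp, counted by the rule as an artery gene, was at 70.1, 65.8, 58.7 and 407 in the cells with Ackr1 and at 11.5, 10.3, 5.58 and 20.6 in the others. Mfsd2a was lower in them, at 51.0, 19.6, 88.1 and 14.5 against 90.8, 73.2, 142 and 66.1, as was the amino acid transporter gene Slc7a5, at 391, 306, 399 and 271 against 611, 500.1, 576 and 550.3. The median UMI count was higher with Ackr1 in both mice numbered 1 and lower in both mice numbered 2. With 7 such cells in Angpt2-KO mouse 1, its values rest on few molecules.

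Venous ECs made up a smaller share of ECs in the Angpt2-KO mice. The share was 4.90% (95% exact binomial interval 4.19 to 5.68%) and 5.89% (5.26 to 6.58%) in Angpt2-WT, and 2.03% (1.49 to 2.70%) and 2.10% (1.70 to 2.58%) in Angpt2-KO. The groups did not overlap, and their means of 5.39% ± 0.706 and 2.07% ± 0.0492 (SD, n = 2 mice each) gave a difference, Angpt2-KO minus Angpt2-WT, of -3.33 percentage points. With 2 mice against 2 the exact two-sided permutation test cannot give a p below 0.33, the value it gave here. Arterial ECs were also fewer, at 12.9% and 8.82% against 5.79% and 6.47%. For each 100 arterial ECs there were 37.96 and 66.8 venous ECs in Angpt2-WT and 35.1 and 32.5 in Angpt2-KO, so Angpt2-WT mouse 1 lay close to both Angpt2-KO mice in this ratio. When each cell was thinned to 2000 UMIs before the rule, the share was 1.52% and 2.20% against 0.419% and 1.08%, and the groups still did not overlap. The thinned class held 48, 97, 9 and 41 cells, of which only 28, 56, 3 and 24 were venous before thinning. It is thus in part made of other cells, and 328, 695, 175 and 785 shallower cells of all types were left out. The share also depends on detection of the vein genes. In other ECs each vein gene of the rule was lower in both Angpt2-KO mice than in both Angpt2-WT mice. Nr2f2 was there at 92.7 and 109 against 36.4 and 49.0 UPM and Adgrg6 at 21.8 and 34.6 against 8.66 and 14.8 UPM. The part of this in the share was not tested. Binomial intervals cover counting error only. A smaller yield of venous cells from a preparation, fewer such cells in the brain and fewer detected vein genes per cell cannot be told apart.

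**Figure D2:**
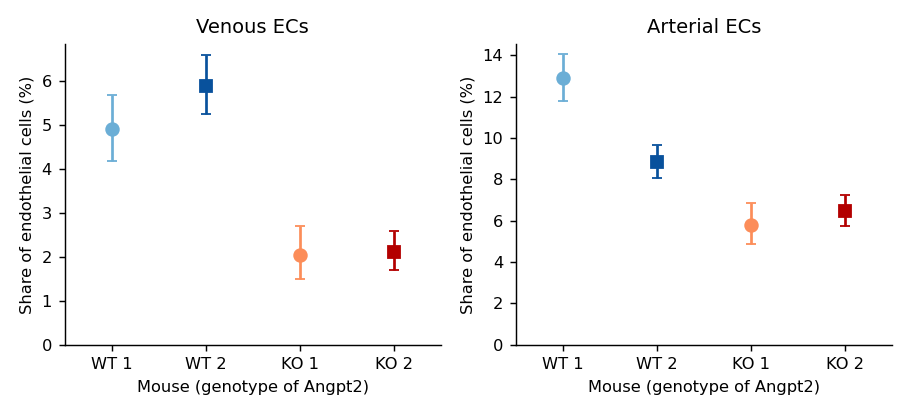
Share of ECs that were venous (left) and arterial (right) in each mouse, in percent, with 95% exact binomial intervals as bars. Both Angpt2-KO mice lie at 2.03% and 2.10% for venous ECs, below both Angpt2-WT mice, and they also lie lowest for arterial ECs.

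Within venous ECs the question was which genes differed between the genotypes once the cells of a mouse were summed. Levels given in CPM are the same measure over the TMM-scaled library size of each mouse. Of 10025 genes tested, 82 rose in Angpt2-KO and 29 fell (edgeR quasi-likelihood test, Benjamini-Hochberg adjusted p under 0.05), which is 0.818% and 0.289% of the genes tested. The 2 mice of a genotype did not overlap with the other 2 in 108 of these 111 genes, while over all genes tested 21.2% lay wholly above and 21.5% wholly below. Angpt2-KO mouse 1 had the higher of the 2 Angpt2-KO levels in 63 of the 82 genes that rose. Without that mouse 49 genes rose and 26 fell, 41 of them among the 111 (29 of the 82 and 12 of the 29), while without Angpt2-KO mouse 2 there were 201 and 55, without Angpt2-WT mouse 1 240 and 322, and without Angpt2-WT mouse 2 124 and 55, the lone mouse of a genotype being taken to vary like the others. Without venous ECs carrying a UMI of Angpt2, Esm1 or Apln 28 rose and 16 fell, 41 of them shared. DESeq2 called 37 and 16. In cells thinned to 2000 UMIs, a class in part made of other cells, edgeR called 0 of 1632 genes, with 126 at an unadjusted p under 0.05.

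A group of 13 genes that rose and 5 that fell was called by edgeR with all mice, by edgeR without either Angpt2-KO mouse in turn, without the cells carrying tip cell UMIs, and by DESeq2. This group was picked after its values were seen, and the fits share mice, so the repeats are no independent test. F5, which encodes clotting factor V (chr1:164151838-164220277, plus strand in GRCm38), was at 71.9 and 50.0 CPM in the Angpt2-WT mice and 281 and 211 CPM in the Angpt2-KO mice (log2 fold change 2.03 ± 0.20 (SE), adjusted p = 2.36e-05). Bst1, an ectoenzyme of the cell surface also known as CD157, was at 12.1 and 13.1 CPM in the Angpt2-WT mice and 47.2 and 54.4 CPM in the Angpt2-KO mice (log2 fold change 2.00 ± 0.24 (SE), adjusted p = 0.000231). Ccnd1, the cyclin D1 of the step into the cell cycle, was at 45.3 and 32.8 CPM in the Angpt2-WT mice and 377 and 179.7 CPM in the Angpt2-KO mice (log2 fold change 2.85 ± 0.27 (SE), adjusted p = 1.31e-05). In each of these 3 genes the 2 genotypes were apart, with Angpt2-KO the higher.

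The enzyme genes Mgll and Ltc4s were in the same group. Mgll, the lipase that breaks down monoacylglycerols, was at 36.4 and 41.5 CPM in the Angpt2-WT mice and 157 and 91.6 CPM in the Angpt2-KO mice (log2 fold change 1.67 ± 0.23 (SE), adjusted p = 0.00055), and Ltc4s, leukotriene C4 synthase, at 24.0 and 42.1 CPM in the Angpt2-WT mice and 83.5 and 89.9 CPM in the Angpt2-KO mice (log2 fold change 1.36 ± 0.24 (SE), adjusted p = 0.00513). Cald1, an actin-binding caldesmon, was at 25.9 and 21.8 CPM against 99.0 and 64.8 CPM (log2 fold change 1.80). Map1b, a microtubule-associated protein, was at 50.5 and 54.4 CPM against 150.1 and 118 CPM (log2 fold change 1.35). Lmo7 was at 53.2 and 48.1 CPM against 115 and 116 CPM (log2 fold change 1.19). The secreted protease gene Htra1 rose by 1.88, the vesicle priming gene Unc13c by 1.35 and the membrane protein gene Emp2 by 0.92 on the log2 scale. Cryab, the small heat shock protein alpha B-crystallin, rose from few molecules, with 4 and 12 UMIs against 22 and 31 (log2 fold change 3.45 ± 0.44 (SE), adjusted p = 0.000348). Ccdc184 did too, with 2 and 2 UMIs against 18 and 19. Both met the filter on low counts through their Angpt2-KO sums, so their place in this group is given as a description.

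Of the genes that fell in this group, Tbx1, a T-box transcription factor gene (chr16:18580979-18590671, minus strand), was at 106 and 100.1 CPM in the Angpt2-WT mice and 34.0 and 43.2 CPM in the Angpt2-KO mice (log2 fold change -1.42 ± 0.21 (SE), adjusted p = 0.00109). Cyp2e1, a cytochrome P450 that oxidises small molecules, was at 64.0 and 35.6 CPM in the Angpt2-WT mice and 3.09 and 6.91 CPM in the Angpt2-KO mice (log2 fold change -3.31 ± 0.41 (SE), adjusted p = 0.000305), and Adh1, an alcohol dehydrogenase, at 74.8 and 93.8 CPM in the Angpt2-WT mice and 34.8 and 38.01 CPM in the Angpt2-KO mice (log2 fold change -1.22 ± 0.21 (SE), adjusted p = 0.0055). In these 3 genes each Angpt2-KO mouse was below each Angpt2-WT mouse. The Angpt2-KO levels of Cyp2e1 rest on few molecules, as 3 UMIs equal 2.41 and 2.66 UPM in those mice. Cyp2e1 met the filter on low counts through its Angpt2-WT sums, so its place in this group is given as a description. Fxyd6, a regulator of the sodium pump, was at 52.8 and 79.1 CPM in the Angpt2-WT mice and 18.6 and 16.4 CPM in the Angpt2-KO mice (log2 fold change -1.92 ± 0.27 (SE), adjusted p = 0.000797). Its direction turned when the rule was loosened to at least 2 vein genes and no artery gene, to a log2 fold change of 0.84. The last member was the hemoglobin gene Hbb-bt, described below.

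**Figure D3:**
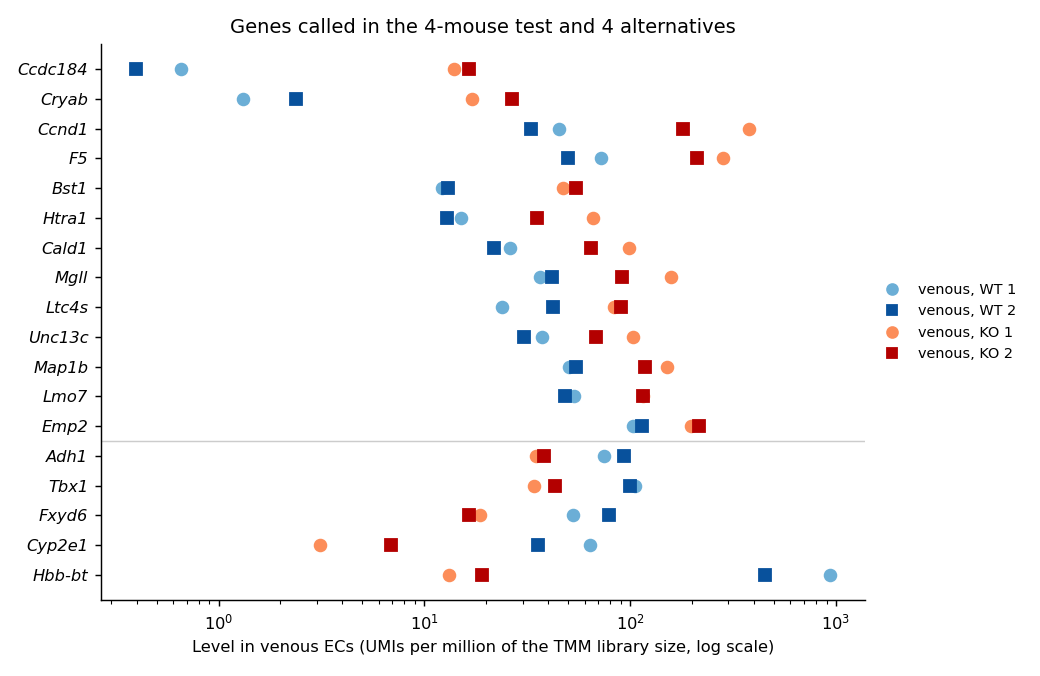
Level of each gene in venous ECs of each mouse, in CPM of the TMM-scaled library (log axis), for the 13 genes that rose (above the line) and the 5 that fell (below the line) in the 4-mouse test and its 4 named alternatives. For every gene the 2 Angpt2-KO points lie on the same side of the 2 Angpt2-WT points.

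The 10 largest rises among the called genes were those of Esm1, Apln, Ccdc184, Fscn1, Epha3, Bmp6, Meox1, Cryab, Pcdh17 and Itga4, and several of them rested on few cells. Esm1, which encodes the proteoglycan endocan of tip cells, was at 0 and 3.16 CPM in the Angpt2-WT mice and 219.7 and 26.8 CPM in the Angpt2-KO mice (log2 fold change 5.98 ± 0.74 (SE), adjusted p = 0.000305). Of its 284 UMIs in Angpt2-KO mouse 1, 95.8% lay in the deep cell described above, and of its 31 in mouse 2, 67.7% lay in 1 cell. Apln, the ligand apelin, was at 1.31 and 3.76 CPM in the Angpt2-WT mice and 329.6 and 11.2 CPM in the Angpt2-KO mice (log2 fold change 5.92 ± 0.87 (SE), adjusted p = 0.00126), with 88.7% of the UMIs of Angpt2-KO mouse 1 in that same cell. Without that cell the log2 fold changes were 3.24 (adjusted p = 0.00216) for Esm1 and 3.21 (adjusted p = 0.000175) for Apln. The actin-bundling gene Fscn1 and the integrin gene Itga4 also had 83.1% and 61.0% of their UMIs of Angpt2-KO mouse 1 in 1 cell, against 22.7% for Cryab and 11.5% for Bst1. Bmp6, a ligand of the BMP pathway, had 10 and 8 UMIs in the Angpt2-KO mice and the ephrin receptor gene Epha3 6 and 9, too few to be tested once either of those mice was left out. Without Angpt2-KO mouse 1 the log2 fold change of Apln was 2.01 (adjusted p = 0.236), and Fscn1, Meox1, Pcdh17 and Itga4 were not called either, while Esm1, Ccdc184 and Cryab kept their calls.

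Cells that carried a UMI of Angpt2, Esm1 or Apln were 6 of 164 (3.66%) and 26 of 294 (8.84%) venous ECs in Angpt2-WT, and 16 of 46 (34.8%) and 15 of 91 (16.5%) in Angpt2-KO. The shares did not overlap between genotypes, which in part restates the rises of Esm1 and Apln. In other ECs Apln was at 4.10 and 5.54 CPM in Angpt2-WT and at 364 and 117 CPM in Angpt2-KO. The part of stray UMIs from such cells in these shares was not tested. Over the 82 genes that rose, the cell with the most UMIs held a median of 21.4% of a gene's UMIs in Angpt2-KO mouse 1 and 11.4% in mouse 2, and over 50% of them in 14 and 7 genes. Removal of the 1 deep cell left 89 genes up and 37 down, 99 of them among the 111.

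**Figure D4:**
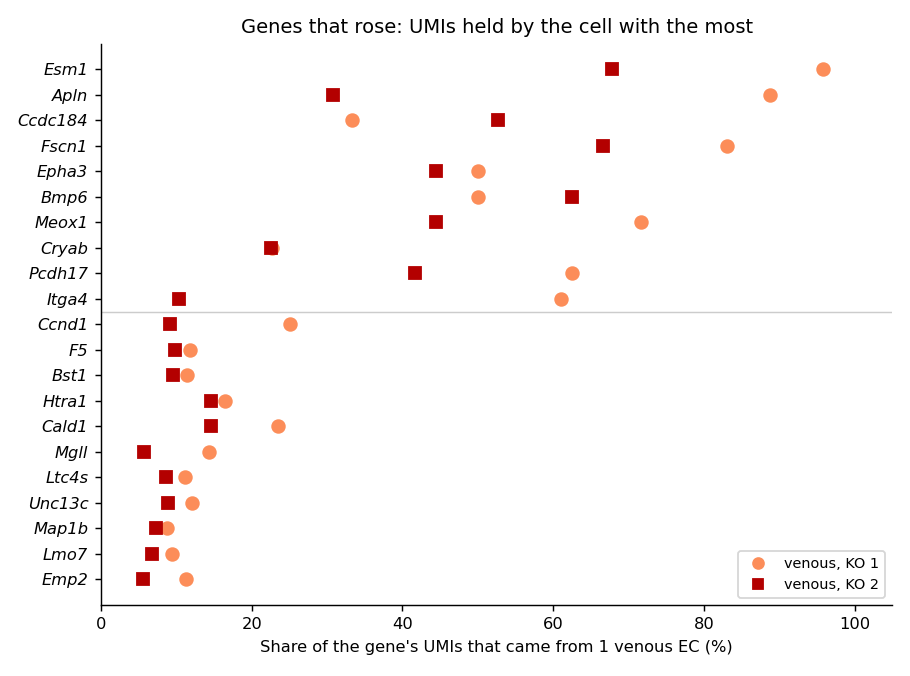
For genes that rose in Angpt2-KO, the share of the gene's UMIs in the venous ECs of a mouse that came from the single cell with the most, in percent, with 1 point for each Angpt2-KO mouse. The genes above the line are the 10 largest rises, led by Esm1 at 95.8% in mouse 1, and those below are the other genes called in all 4 alternatives, none of which passes 25.1%.

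The largest falls were those of Hbb-bt, Cyp2e1, Hbb-bs, Ccl19, Napsa, Hba-a2, Hba-a1, Gm5089, Ttr and Rims2. The 4 hemoglobin genes, which are made by red blood cells and have near-identical copies that counting may split unevenly, had 30446 and 21629 UMIs in venous ECs of Angpt2-WT and 2117 and 736 in Angpt2-KO. The 3 cells with the most held 71.4%, 90.2%, 99.1% and 86.5% of them. With the 9, 15, 2 and 3 venous ECs of over 10 hemoglobin UMIs left out, the log2 fold change of Hbb-bs went from -2.61 to 0.25, that of Hba-a1 from -2.36 to 0.37, that of Hba-a2 from -2.38 to 1.07 and that of Hbb-bt from -5.44 to -0.20, none of them called. Those cells were chosen for their hemoglobin UMIs, so the loss of these calls was largely built in. In other ECs the erythroid markers summed to 5666, 5937, 5812 and 7419 UPM in the 4 mice, with both Angpt2-KO values inside or above the Angpt2-WT range.

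Ttr, the thyroxine carrier made in bulk by the choroid plexus, was at 351 and 265 CPM in the Angpt2-WT mice and 21.7 and 117 CPM in the Angpt2-KO mice (log2 fold change -2.17 ± 0.38 (SE), adjusted p = 0.0055). The 4 choroid plexus markers, of which Ttr was the most abundant, summed to 433, 342, 120.4 and 189 UPM in venous ECs and to 838, 3981, 222 and 1951 in other ECs, and their part in this fall was not tested. Ccl19, a chemokine that draws T cells and dendritic cells, was at 12.1 and 25.5 CPM against 1.55 and 5.18 CPM, and the aspartic protease gene Napsa at 15.8 and 25.5 CPM against 0.774 and 6.91 CPM, from 48 and 129 against 1 and 8 UMIs. Rims2 was at 23.3 and 17.0 CPM against 3.87 and 6.05 CPM and Gm5089, a predicted gene, at 12.1 and 17.4 CPM against 3.09 and 3.46 CPM. Ccl19, Napsa, Rims2 and Gm5089 met the filter on low counts through their Angpt2-WT sums, so their falls are in part built in. Slc1a3, a glutamate transporter gene best known from astrocytes, was called too, at 34.1 and 31.3 CPM against 7.74 and 13.0 CPM (log2 fold change -1.67 ± 0.30 (SE), adjusted p = 0.00664), while the 6 astrocyte markers including it summed to 62.9, 51.7, 61.0 and 38.9 UPM and did not separate the genotypes. Without Angpt2-KO mouse 1, Napsa, Rims2, Gm5089 and Slc1a3 were not called, and Ttr and Ccl19 were. Over the alternatives with a value, the log2 fold change lay between -2.32 and -1.71 for Rims2 and between -2.89 and -1.87 for Gm5089. It lay between -2.05 and -1.33 for Slc1a3 and between -4.68 and -1.61 for Napsa. DESeq2 called neither Ttr nor Ccl19, and Ccl19 was not called without the cells carrying tip cell UMIs. In thinned cells the log2 fold change of Ttr turned to 1.42 ± 0.60 (SE, adjusted p = 0.598).

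Genes of the basement membrane, the protein sheet under the ECs, were higher in Angpt2-KO venous ECs. Of 13 members tested, 5 rose and 0 fell (0.818% and 0.289% of all genes tested), all 13 had both Angpt2-KO mice above both Angpt2-WT mice (21.2% of all genes did), and the median log2 fold change was 0.94 against -0.02 over all genes tested. The collagen IV chains Col4a1 and Col4a2, the scaffold of the membrane, were at 421 and 353 CPM in the Angpt2-WT mice and 1027 and 550.4 CPM in the Angpt2-KO mice (log2 fold change 1.03 ± 0.24 (SE), adjusted p = 0.0419) and at 261 and 223 CPM in the Angpt2-WT mice and 678 and 364 CPM in the Angpt2-KO mice (log2 fold change 1.11 ± 0.24 (SE), adjusted p = 0.0234). The laminin chain genes Lama4 and Lamc1 rose by 1.06 and 1.31 on the log2 scale, and Nid1, the nidogen that links laminin to collagen IV, by 1.80. Perlecan (Hspg2) was at 88.9 and 69.0 CPM against 207 and 91.6 CPM and fibronectin (Fn1) at 1280.3 and 954 CPM against 1652 and 1549 CPM, with adjusted p values of 0.0992 and 0.312. Angpt2-KO mouse 1 was well above mouse 2 in the 5 called genes, and without it, or without the cells carrying tip cell UMIs, none of the 5 passed the test, while without the 1 deep cell Col4a2, Lama4 and Nid1 passed. In thinned cells the log2 fold change of Col4a1 was -0.12. In other ECs 6 of 14 members rose (2.19% of all genes there), with a median of 0.81.

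Col4a1 and Col4a2 lie head to head on chromosome 8, Col4a1 on the minus strand (chr8:11198423-11312826) and Col4a2 on the plus strand (chr8:11312805-11449287), and their annotated 5′ ends overlap by 22 bases. The start windows of the pair share 78 bases (chr8:11312777-11312854, GRCm38.p6, RefSeq), shown on the plus strand because it lies at the start of both genes.
Col4a1/Col4a2: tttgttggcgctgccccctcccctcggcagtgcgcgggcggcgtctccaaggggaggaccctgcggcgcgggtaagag
Neither AGGTCA nor the NF-kB form occurs in these bases. The 3′ ends that were counted lie far apart, at the outer ends of the pair.

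Genes of tip cells, the ECs that lead a sprout, were also higher. Of 17 listed, 11 were abundant enough to test, 7 rose and 0 fell (0.818% and 0.289% of all genes tested did), with a median log2 fold change of 2.04. The genes that rose were Apln, Bmp6, Ccn2, Ccnd1, Esm1, Fscn1 and Trp53i11. Apln, Bmp6, Esm1 and Fscn1 had 4 and 19, 0 and 3, 0 and 16 and 3 and 7 UMIs in Angpt2-WT. They met the filter on low counts through their Angpt2-KO sums, so the count and the median are in part built in. In other ECs 15 of 17 rose (2.19% of all genes there), with a median of 2.24. The genotype effect was called larger in venous than in other ECs for 7 of the 17 and smaller for 2, Ccn2 among them. Over all genes tested for this difference the shares were 1.26% and 0.932%. As given above, the UMIs of Esm1, Apln and Fscn1 in Angpt2-KO mouse 1 lay mostly in 1 venous EC for each gene. Of the 7 that rose in venous ECs only Ccnd1 passed in each of the 4 alternatives named above. Of these alternatives 1 leaves out every cell with a UMI of Esm1 or Apln, so that these genes could not pass it. Trp53i11 turned to a log2 fold change of -0.047 without Angpt2-KO mouse 1. The UMIs of Nrp1, a co-receptor of VEGF and semaphorins, were spread over 37 of 46 and 59 of 91 Angpt2-KO cells. These counts describe the spread over cells and make no comparison with Angpt2-WT. Nrp1 was at 133 and 115 CPM in the Angpt2-WT mice and 354 and 181 CPM in the Angpt2-KO mice (log2 fold change 1.11 ± 0.23 (SE), adjusted p = 0.0221). It was not called without Angpt2-KO mouse 1 or without the cells carrying tip cell UMIs. The chemokine gene Cxcl12 was at 378 and 309.5 CPM in the Angpt2-WT mice and 1056 and 533 CPM in the Angpt2-KO mice (log2 fold change 1.21 ± 0.25 (SE), adjusted p = 0.0215) and was the only one of 10 capillary genes to rise, the list having a median of 0.25. It was not called without Angpt2-KO mouse 1 or by DESeq2.

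Genes of antigen presentation and the interferon response were lower in Angpt2-KO venous ECs. All 15 members tested had a log2 fold change below 0, 13 had both Angpt2-KO mice below both Angpt2-WT mice (21.5% of all genes did), and the median was -0.65 against -0.02 over all genes, but only 2 passed the test (0.289% of all genes fell). These were Ifit1, an interferon-induced binder of viral RNA, at 152 and 168 CPM in the Angpt2-WT mice and 87.4 and 82.9 CPM in the Angpt2-KO mice (log2 fold change -0.91 ± 0.17 (SE), adjusted p = 0.0118), and the class I gene H2-Q7 at 201 and 176 CPM in the Angpt2-WT mice and 101 and 56.2 CPM in the Angpt2-KO mice (log2 fold change -1.25 ± 0.22 (SE), adjusted p = 0.00512). Ifit1 was not called when either Angpt2-KO mouse was left out or without the cells carrying tip cell UMIs, and H2-Q7 not without Angpt2-KO mouse 2. H2-Q6, a close paralog whose reads may be split with H2-Q7, fell by 1.15 on the log2 scale. The classical class I genes H2-K1 and H2-D1 were at 1572 and 1541 CPM against 1143 and 968 CPM and 1263 and 1517 CPM against 1091 and 977 CPM, with adjusted p values of 0.231 and 0.399. Isg15 was at 172 and 228 CPM against 121 and 123 CPM (adjusted p = 0.0744), the immunoproteasome subunit gene Psmb9 at 124 and 168 CPM against 88.2 and 81.2 CPM (adjusted p = 0.0533) and Ifitm3 at 1505 and 2369 CPM against 1082 and 1222 CPM (adjusted p = 0.138). The interferon-induced GTPase gene Irgm1, outside the list and picked after its values were seen like H2-Q6, fell as well, at 79.1 and 96.1 CPM against 51.8 and 45.8 CPM. H2-Q6 lost its call without Angpt2-KO mouse 2, and Irgm1 when either was left out. The mitochondrial share given above was lower in the same Angpt2-KO cells. In other ECs 1 of 15 fell (1.08% of all genes there), with a median of -0.33.

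Vein genes that the rule did not use gave a single call. Of 13 tested, 1 fell and 0 rose (0.289% and 0.818% of all genes did). Of these 13, 6 lay wholly below Angpt2-WT and 1 wholly above (21.5% and 21.2% of all genes did), and the median log2 fold change was -0.37. The gene that fell was Lcn2, at 62.4 and 90.6 CPM in the Angpt2-WT mice and 32.5 and 43.2 CPM in the Angpt2-KO mice (log2 fold change -1.03 ± 0.24 (SE), adjusted p = 0.038). It was not called without Angpt2-KO mouse 1, without the cells carrying tip cell UMIs or by DESeq2. Vcam1 was at 714 and 639 CPM against 354 and 541 CPM (adjusted p = 0.251) and the lysosomal protease gene Ctsc at 276 and 343 CPM against 178 and 238 CPM (adjusted p = 0.223). In other ECs Vcam1 and Ctsc fell by 1.08 and 1.03 on the log2 scale (adjusted p = 0.0258 and 0.032), and the genotype effect in venous ECs was the smaller, by 0.47 ± 0.10 and 0.43 ± 0.11 (± SE, adjusted p = 0.000288 and 0.00622, edgeR). Other ECs also include the cells with 1 or 2 vein genes. The rule chose venous ECs by detected vein genes, so a smaller effect on vein genes there is in part built in. The receptor EphB4 (Ephb4), a partner of arterial ephrin-B2, was at 122 and 119 CPM against 92.8 and 86.4 CPM (adjusted p = 0.335), and endomucin (Emcn), the 1 gene wholly above, at 322 and 389 CPM against 503 and 435 CPM (adjusted p = 0.423).

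Genes of leukocyte adhesion and cytokine response gave no call among 17 tested, with a median log2 fold change of -0.25, and 7 lay wholly below Angpt2-WT and 2 wholly above (21.5% and 21.2% of all genes did). The chemokine gene Cxcl10 was at 41.4 and 38.4 CPM against 12.4 and 25.1 CPM (log2 fold change -1.10 ± 0.28 (SE), adjusted p = 0.0684). The NF-kB inhibitor gene Nfkbia was at 1094 and 1284 CPM against 902 and 987 CPM (adjusted p = 0.526). The 17 immediate early and heat shock genes, which respond to tissue dissociation, gave no call either, with 9 wholly below Angpt2-WT and 3 wholly above (21.5% and 21.2% of all genes), a median of -0.25 and a summed level of 13339, 12868, 11058 and 11535 UPM. Ier3 was at 928 and 877 CPM against 514 and 669.6 CPM and Junb at 1687 and 1512 CPM against 1004 and 1253 CPM, with adjusted p values of 0.195 and 0.316. In other ECs 4 of the 17 fell (1.08% of all genes there). Markers of transformed ECs from pericyte-deficient Pdgfb ret/ret mice, taken by the study from earlier work on that mutant, include a group headed venous. Of its 55 genes (3 more names match no gene in the files), 1 rose (Arhgap20) and 4 fell (Adh1, Bambi, Lcn2 and Slc1a3), with a median of -0.29, while 10 lay wholly above Angpt2-WT and 28 wholly below, against the same shares over all genes of 0.818%, 0.289%, 21.2% and 21.5%. Of the 5 called, Adh1 alone kept its call without Angpt2-KO mouse 1.

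Genes of the blood-brain barrier gave no call. For this and the next lists, 0.818% of all genes tested rose and 0.289% fell. None of 9 junction genes and none of 12 transporter genes passed the test, and their median log2 fold changes were -0.04 and 0.05. Of 14 Wnt target genes and 8 Notch genes tested, 0 passed, with medians of 0.04 and 0.15. Of 7 transcytosis genes 1 rose, Plvap, a protein of fenestrated vessels, at 0.656 and 22.9 CPM in the Angpt2-WT mice and 92.8 and 39.7 CPM in the Angpt2-KO mice (log2 fold change 2.33 ± 0.55 (SE), adjusted p = 0.0459). Of its UMIs in Angpt2-KO 99.2% and 87.0% lay in 1 cell of each mouse, and its direction turned to -0.46 under a looser rule of at least 2 vein genes and no artery gene. Of 14 genes of the BMP and ALK1 pathway Bmp6 rose and Bambi, a pseudoreceptor that dampens the pathway, fell, at 64.3 and 70.8 CPM against 36.4 and 32.0 CPM (log2 fold change -0.98 ± 0.21 (SE), adjusted p = 0.026). Bambi was not called when either Angpt2-KO mouse was left out or by DESeq2. Acute phase and complement genes gave 1 rise and 1 fall of 9 tested (Cd55, a shield against complement, and Lcn2), and the VEGF and neuropilin genes 1 rise of 7 (Nrp1). None of 7 further artery genes, 11 shear and coagulation genes, 5 cell cycle genes or 5 sex-linked genes passed, with median log2 fold changes of 0.02, 0.18, 0.01 and -0.63. In the angiopoietin pathway 3 genes were abundant enough to test and 0 passed, the receptor gene Tek being at 469 and 445 CPM against 356 and 489.9 CPM and Ptprb, the phosphatase that acts on Tie2, at 2843 and 2256 CPM against 3275 and 3622 CPM. A gene that did not pass may still differ by an amount that 2 mice per genotype cannot show.

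**Figure D5:**
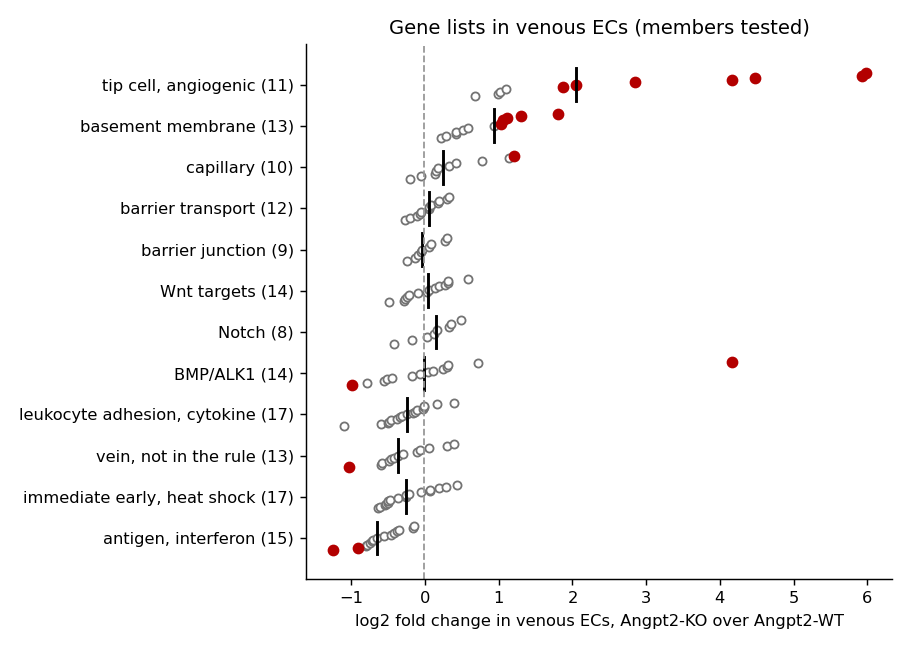
log2 fold change of each tested gene in venous ECs, Angpt2-KO over Angpt2-WT, by gene list, with the number tested in brackets. Filled points passed the edgeR test, bars are list medians and the dashed line is the median of all genes, at -0.02. Basement membrane genes lie to the right of the line and antigen and interferon genes to the left.

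Other ECs of the same mice gave their own calls, set beside those of venous ECs here as values because the mice are shared. In other ECs 298 genes rose and 147 fell of 13608 tested (2.19% and 1.08%), and in arterial ECs 35 and 15 of 10545 (0.332% and 0.142%). Of the 82 genes that rose in venous ECs 49 also rose in other ECs, and of the 29 that fell 16 also fell in other ECs. F5 and Bst1 were at 19.2 and 26.0 CPM against 69.9 and 86.9 CPM and 3.35 and 3.43 CPM against 11.6 and 15.5 CPM there, with log2 fold changes of 1.79 and 2.00, and Cyp2e1 and Adh1 changed by -4.39 and -1.86. For all 4 the test of the difference between the effects gave no call (adjusted p = 0.284, 1, 0.399 and 0.111).

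The difference between the genotype effect in venous ECs and that in other ECs passed the edgeR test in 169 genes towards a higher and 125 towards a lower effect in venous ECs, of 13414 tested (1.26% and 0.932%). This count was sensitive, falling to 41 and 16 with DESeq2 and to 1 and 2 in thinned cells. Without Angpt2-WT mouse 1 it was 100 and 38, without Angpt2-WT mouse 2 69 and 38, without Angpt2-KO mouse 1 110 and 99 and without Angpt2-KO mouse 2 176 and 172. The same venous sums enter this test and the one within venous ECs. With 2 mice per genotype, the SEs and p values of this difference, here, above and below, lean on a variance pooled over genes. They say little of how far the effect on a single gene varied between mice. Of the 82 genes that rose in venous ECs 32 had a called higher effect, and of the 29 that fell 12 a called lower one. In 7 of those that rose and 1 of those that fell the call was kept with DESeq2, against arterial ECs, without each Angpt2-KO mouse, without cells carrying tip cell UMIs and without cells rich in hemoglobin. These were Ccdc184, Cryab, Irx3, Cald1, Mgll, Lmo7 and Ptprr, and Fxyd6, a group also picked after its values were seen. Mgll was at 147 and 216 CPM against 266 and 199 CPM in other ECs, where it was not called, and the effect in venous ECs was the larger by 1.31 ± 0.14 on the log2 scale (adjusted p = 6.71e-19). The phosphatase gene Ptprr was at 203 and 223 CPM in the Angpt2-WT mice and 388 and 346 CPM in the Angpt2-KO mice in venous ECs (log2 fold change 0.78 ± 0.18 (SE), adjusted p = 0.038) and at 145 and 184 CPM against 155 and 194 CPM in other ECs, a difference of effects of 0.70 ± 0.10 (adjusted p = 1.99e-09). The call of Ptprr within venous ECs, unlike that of the difference, was lost when either Angpt2-KO mouse was left out. The rise of the homeobox gene Irx3 within venous ECs was not called by DESeq2 or without Angpt2-WT mouse 2, and its log2 fold change was 0.25 under the looser rule. With all mice Irx3 was at 2.30 and 2.57 CPM against 15.5 and 13.8 CPM in venous ECs (log2 fold change 2.55 ± 0.44 (SE), adjusted p = 0.00512) and was at 22.4 and 22.9 CPM against 22.8 and 16.3 CPM in other ECs. Within venous ECs it met the filter on low counts through its Angpt2-KO sums, so its rise there is given as a description.

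Col6a6, which had led the genes outside the rule at 50 UPM or more in venous ECs of every mouse, rose further in Angpt2-KO, from 65.3 and 59.7 to 103 and 118 CPM (log2 fold change 0.82 ± 0.18 (SE), adjusted p = 0.0283), while it was at 8.24 and 13.9 CPM against 7.63 and 10.999 CPM in other ECs (difference of effects 1.10 ± 0.17, adjusted p = 6.45e-08). It lost its own call when either Angpt2-KO mouse was left out, and the difference was not called against arterial ECs or by DESeq2. Over the alternatives the log2 fold change of Col6a6 within venous ECs ran from 0.037 to 0.96. A few more genes with a larger effect in venous ECs were picked after their values were seen. Adamts1, a matrix protease, was at 152 and 125 CPM in the Angpt2-WT mice and 296 and 308 CPM in the Angpt2-KO mice (log2 fold change 1.12 ± 0.18 (SE), adjusted p = 0.00222), and Ramp3, a subunit of the adrenomedullin receptor, at 18.7 and 22.9 CPM in the Angpt2-WT mice and 41.0 and 47.5 CPM in the Angpt2-KO mice (log2 fold change 1.07 ± 0.23 (SE), adjusted p = 0.0257), with effects larger than in other ECs by 0.77 ± 0.11 and 1.33 ± 0.21 (adjusted p = 1.29e-10 and 3.44e-08). Plpp3, which degrades lysophosphatidic acid, was at 18.1 and 31.8 CPM against 121 and 77.8 CPM and the metalloprotease inhibitor gene Timp3 at 225 and 169.7 CPM against 497 and 292 CPM, with differences of 1.69 ± 0.15 and 0.82 ± 0.10. Without the cells carrying tip cell UMIs the differences for Adamts1, Plpp3 and Timp3 were not called, none of these 3 nor Ramp3 was called within venous ECs, and the log2 fold change of Plpp3 was 0.013. Timp3 was not called within venous ECs without Angpt2-KO mouse 1 either, nor Ramp3 without mouse 2, and the difference for Ramp3 was not called against arterial ECs. Lcn2 showed the opposite sign, with 10.3 and 22.6 CPM against 22.4 and 12.9 CPM in other ECs and a difference of -1.13 ± 0.19 (adjusted p = 8.23e-07), not called without Angpt2-KO mouse 1 or by DESeq2.

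Most genes that rose were, in Angpt2-WT, lower in venous than in other ECs. The same Angpt2-WT sums enter the test, so this is in part built in, and the counts are given as a description. In both Angpt2-WT mice 62 of the 82 genes that rose were lower in venous than in other ECs, against 25.2% of the 10025 genes tested, and 22 of the 29 that fell were higher in venous ECs, against 44.0%. Among the 32 genes with a called rise and a called larger effect, 27 were lower in venous ECs of both Angpt2-WT mice. Mgll was at 36.4 and 41.5 CPM in venous and 147 and 216 CPM in other ECs of Angpt2-WT, and Adamts1 at 152 and 125 against 303 and 229 CPM. The genes of the rule itself were at a mean of 350.3 ± 33.7 UPM in Angpt2-WT and 281 ± 93.3 in Angpt2-KO for Nr2f2, and 218 ± 10.0 and 173 ± 69.2 for Il1r1 (SD, n = 2). Whether venous ECs of Angpt2-KO changed or the rule admitted other ECs more often there cannot be told apart.

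Markers of other cells were not equal between mice. In venous ECs erythroid markers summed to 9684, 4166, 1703 and 652 UPM and choroid plexus markers to the values given above, while no other list of such markers summed to more than 108 UPM. The 8 pericyte markers, with Rgs5 the most abundant, summed to 31.1, 30.4, 16.9 and 67.3 UPM and the 8 microglial markers to 41.6, 33.8, 36.1 and 59.3. Smooth muscle markers summed to 14.0, 6.73, 4.82 and 19.5 and the 5 fibroblast markers to 0.953, 1.73, 0 and 0.885, with Lum and Col1a1 at 0 in all mice, while Cd3g, Trbc2 and Nkg7 of T and NK cells were also at 0 and Cd3e at 0 to 0.192. The lymphatic genes Prox1 and Pdpn were at 0 too, and Lyve1 at 0.953 to 1.92. Oligodendrocyte markers, with Mbp, stood out in Angpt2-WT mouse 2, at 11.4, 75.0, 4.82 and 6.20. The 4 B cell markers summed to 4.45, 11.5, 68.2 and 6.20, and 95.3% of the 85 UMIs in Angpt2-KO mouse 1 lay in 1 cell. The neuron markers summed to 3.49, 4.42, 4.01 and 4.43 and the platelet markers to 12.7, 22.1, 22.5 and 22.1 UPM. The 3 markers of fenestrated ECs, led by Plvap, summed to 1.59, 29.6, 108 and 50.5. None of the pericyte, microglial, oligodendrocyte, B cell or platelet markers that could be tested passed the test, and the part of the other cell types in the results above was not tested beyond the values given.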

How the data were processed

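The authors aligned the reads of 4 libraries to mm10 with Cell Ranger (6.1.2 in the submitters' processing notes, 6.1.1 in the matrix headers) and deposited filtered matrices of UMI counts for 32286 features, 1 of which, a reporter, had no UMI. Cells were filtered and classed as described above, and no doublet caller was run. UMI counts were summed per mouse over venous, other and arterial ECs and tested with edgeR 4.0.16 (filterByExpr, TMM factors, quasi-likelihood test, Benjamini-Hochberg adjustment, threshold 0.05) in R 4.3.3. The 23 genes of the rule counted towards library sizes and were not tested. The difference of effects was the class by genotype term in a fit of 8 sums with a term for each mouse. Shares were compared by exact permutation test (scipy 1.17.1). The steps were tested on simulated data. Alternatives were DESeq2 1.42.0, other factors and filters, a replicate block, each mouse left out, 4 other class rules and thinned cells, and, chosen after seeing the data, sums without cells carrying tip cell, Plvap or hemoglobin UMIs or the 1 deepest cell. Genes named were the 325 genes of 35 lists, the 10 largest rises and falls among called genes whose groups did not overlap, the 5 largest differences of effect in each direction, and those said to be picked later. A few genes that these rules name are not reported here. The members and lists were chosen with earlier results of these data known. Between 1129683 and 5200827 venous UMIs per mouse, with 2 mice per genotype, set the precision.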

Additional observations from a re-analysis of the deposited data

Results flagged for a closer look

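The 5 called genes with the highest and the 5 with the lowest difference of the log2 genotype effect, venous minus other ECs (edgeR), are given because the effect differed between the classes. All were low in venous ECs or lay in few cells. Hist1h1b, a linker histone of dividing cells, had a difference of 10.56 and its 15 UMIs in Angpt2-KO venous ECs lay in 1 cell of mouse 2. The B cell genes Ms4a1 (8.616), Ly6d (8.164) and Ighd (5.583) had 16, 13 and 6 UMIs in Angpt2-KO mouse 1, of which 16, 12 and 6 lay in 1 cell, and Fblim1 (7.789), a gene of cell adhesion, had 5 UMIs in 1 cell of that mouse. Towards a lower effect, Lyz2 (-3.077), the lysozyme of myeloid cells, had 118 UMIs in Angpt2-WT mouse 2 with 61.9% in 1 cell, and the chemokine gene Ccl4 (-3.165) had 38 there with 50.0% in 1 cell. Tnfsf8 (-3.383) had 2 and 8 UMIs in Angpt2-WT and 1 and 7 in Angpt2-KO. Adcy3 (-8.972), an adenylyl cyclase, had 9 and 12 UMIs in Angpt2-WT and 0 and 0 in Angpt2-KO. Hbb-bt (-5.522) is described with the other hemoglobin genes above. Groups of 2 mice are too small for a search for single outlying samples.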

How the results depend on the processing

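The direction of the venous share was the same in every alternative tried, with differences from -3.82 to -2.83 percentage points when 1 mouse was left out and of -1.11 in thinned cells. Against 111 called genes with all mice, the total was 53 with DESeq2, 326 without a filter, 44 with at least 4 vein genes, 44 without cells carrying tip cell UMIs and 0 in thinned cells, and it ran from 75 to 562 with 1 mouse left out. For the difference of effects the total of 294 became 57 with DESeq2, 44 against arterial ECs and 3 in thinned cells, and ran from 107 to 348 with 1 mouse left out. The replicate block gave 190 called genes, among them all 111. Replicate numbers are also the sexes. The paper speaks of 2 independent experiments, but the sample labels do not tie a replicate number to one. Between the genotypes, the differences between mouse 2 and mouse 1 correlated across genes by a Pearson r of 0.0198 and a Spearman rho of -0.0986. Genes are not independent replicates, so these values gave no sign of pairing but do not show that the mice were unpaired. Values that reversed were those of Col4a1 (-0.12), Emcn (-0.17), Junb (0.10), Ttr (1.42) and Vcam1 (0.47) in thinned cells, of Fxyd6 (0.84) and Plvap (-0.46) with at least 2 vein genes and no artery gene, and of Hba-a1 (0.37), Hba-a2 (1.07) and Hbb-bs (0.25) without hemoglobin-rich cells. Trp53i11 reversed without Angpt2-KO mouse 1 (-0.047, with up to 2.65 when another mouse was left out) and without cells carrying tip cell UMIs (-0.28). For the difference of effects, 5 values had no UMI left in Angpt2-KO venous ECs and give no direction. They were Fblim1 in the same settings (-0.38 and -0.10, SE 5631 and 2675, with up to 9.18 when another mouse was left out), Ms4a1 without hemoglobin-rich cells (-0.76, SE 2834), and Ighd without those cells (-2.54, SE 6.89) and without Angpt2-KO mouse 1 (-2.82, SE 9.48, with up to 9.68 otherwise). Lyz2 turned against arterial ECs (0.28) and in thinned cells (8.35, SE 6.23). Cells were classed again after thinning, so values in thinned cells come in part from other cells. The cause of these changes was not tested. With 46 and 91 Angpt2-KO cells, genes under a few UMIs per mouse could not be tested at this depth.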
